A study of Rattus norvegicus with 12 samples.

Results

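Mature miR-140-3p and miR-140-5p are the products of a single hairpin RNA, and their levels and arm ratio were followed in rat serum after caffeine, dextromethorphan or both. The arms were taken by name from the deposited table, where they are 2 of 752 mature microRNA names, each listed at 1 locus. They were chosen by their levels and arm ratio in these same libraries, so both are described here without a test. The rats were 7-week-old male Sprague-Dawley animals given a single oral dose, the drugs being dissolved in sterile distilled water. The groups received 180 mg/kg caffeine (CAF), 200 mg/kg dextromethorphan hydrobromide monohydrate (DEX), both drugs at those doses with dextromethorphan 1 h after caffeine (CAF+DEX), or the vehicle alone (Control). In the groups given dextromethorphan, blood was drawn 1 h after it. The interval between caffeine and blood in CAF is not known here. RNA came from 200 uL of serum. There were 12 libraries, 3 in each of 4 groups, named as in the table's columns. The design text gives 5 rats per group, and nothing in the labels ties each library to a separate animal, so the spread between libraries may be partly technical.

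A microRNA hairpin is cut by Dicer into a duplex, and an Argonaute protein keeps mainly 1 strand of it. The strand from the 5′ side is called 5p and that from the 3′ side 3p, and the kept strand recognises target messages through its seed, bases 2 to 8. In mouse and human the miR-140 gene lies within an intron of Wwp2, which encodes a ubiquitin ligase. In cartilage it is activated by the transcription factor SOX9, and mice without it have skeletal defects. The 5p arm is the classical chondrocyte regulator, known to target the aggrecan-cleaving protease ADAMTS5, and the 3p arm is the more abundant product in many human tissues.

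The mature sequences are shown because the arms differ in seed and in their first base, and the hairpin shows where each lies. They are from RefSeq (GRCr8). Capitals mark the seed in the mature sequences and both arms in the hairpin, where the 5p arm comes first.
rno-miR-140-3p: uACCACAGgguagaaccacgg
rno-miR-140-5p: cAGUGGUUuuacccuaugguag
rno-mir-140 hairpin: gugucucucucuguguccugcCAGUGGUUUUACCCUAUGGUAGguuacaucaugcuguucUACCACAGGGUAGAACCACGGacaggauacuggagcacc
The 3p arm begins with U and the 5p arm with C, and their G and C content was 57.1% and 45.5%. No other name among the 693 mature rat microRNAs in the RefSeq table shared either seed. In the fold of lowest predicted energy, 19 bases of each arm were paired with the other arm. In the files' coordinates, for which the submitters' processing notes name build rn6, the 3p arm lies on chromosome 19 at 39609011 to 39609031 and the 5p arm at 39608972 to 39608993, both on the plus strand with 17 bases between them. The nearest listed microRNAs were miR-328a-5p, 2.35 Mb before the hairpin and on the minus strand, which reached at most 118 FPKM, and miR-3084a-1-5p, 3.79 Mb after it, which was at 0 in every library.

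Reads assigned to microRNAs ranged from 403913 in DEX3 to 2625593 in ctrl3, and the shallowest libraries were DEX3 and DEX2 with 443564. Of the 752 names 203 were at 0 in every library, and those above 0 numbered from 382 in DEX2 to 451 in ctrl3. The deposited values are FPKM (given here as kilo-FPKM, written kFPKM), a level per length relative to the reads assigned to listed microRNAs, so a change in an abundant microRNA moves all others the opposite way. miR-191a-5p, the most abundant, was at 9989 ± 1678 kFPKM after dextromethorphan and 15781 ± 1214 kFPKM in Control (SD, n = 3 each). In serum, fewer source cells releasing a microRNA and less microRNA released per cell cannot be told apart.

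miR-140-3p was among the most abundant microRNAs of this serum, and each drug given alone went with a higher level. It stood at 1984, 1888 and 2828 kFPKM in CAF3, CAF4 and CAF5. After dextromethorphan it stood at 1967, 2991 and 3224 kFPKM in DEX1, DEX2 and DEX3. After both drugs it was at 2276, 2336 and 1446 kFPKM in CAFDEX2, CAFDEX3 and CAFDEX6, against 1303, 1515 and 1367 kFPKM in ctrl1, ctrl3 and ctrl5. Every library of either single drug lay above every Control library, while CAFDEX6 fell among the controls and the other CAF+DEX libraries lay above them. By level it ranked 3 to 4 of 752 names after dextromethorphan, 4 to 5 after caffeine, 5 to 8 after both drugs and 6 to 10 in Control. As a share of assigned reads it made up 5.73% ± 1.40 after dextromethorphan, 4.69% ± 1.09 after caffeine, 4.24% ± 1.05 after both and 2.93% ± 0.229 in Control (SD, n = 3 each).

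miR-140-5p was far less abundant and its groups overlapped more. It stood at 45.6, 34.7 and 50.1 kFPKM in CAF3, CAF4 and CAF5. After dextromethorphan it stood at 44.8, 57.7 and 67.1 kFPKM in DEX1, DEX2 and DEX3. After both drugs it was at 48.3, 46.1 and 36.3 kFPKM in CAFDEX2, CAFDEX3 and CAFDEX6, against 32.1, 30.0 and 44.7 kFPKM in ctrl1, ctrl3 and ctrl5. The dextromethorphan libraries lay above all controls, DEX1 only just above ctrl5, and both other treated groups overlapped Control. It ranked 51 to 67 of 752 names across the libraries and took 0.0659% to 0.148% of assigned reads.

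**Figure D1:**
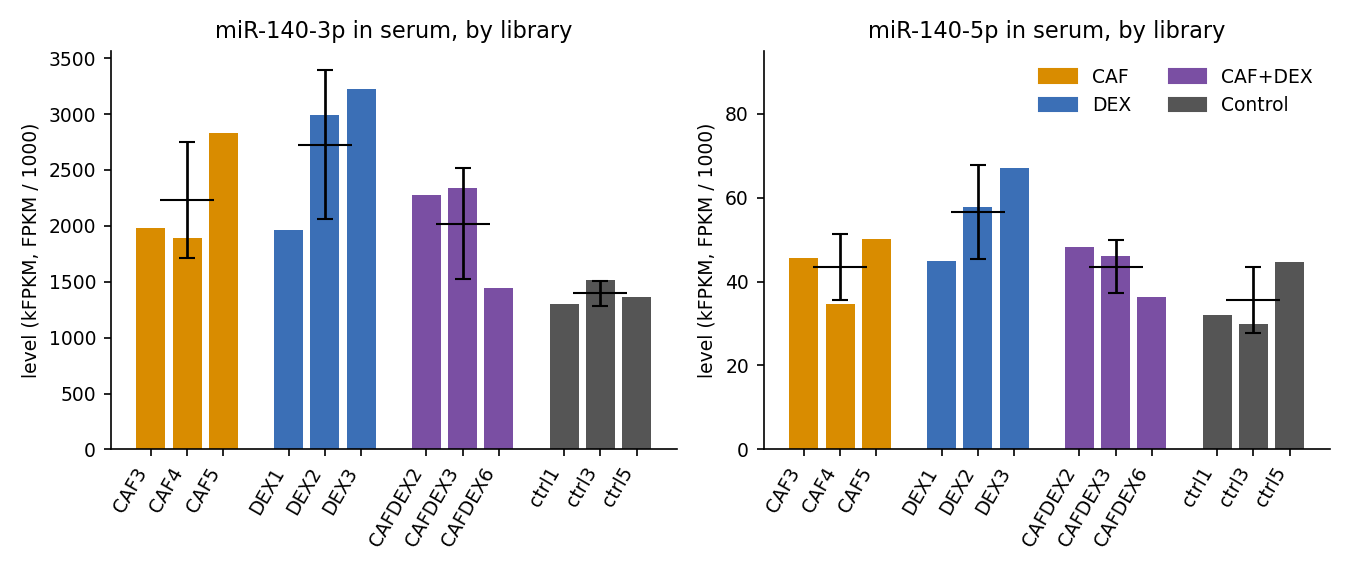
Levels of miR-140-3p (left) and miR-140-5p (right) in kFPKM, with 1 bar per library coloured by group and, in each group, the mean with its SD in black (n = 3). The 3p bars of CAF and DEX all stand above the Control bars, while for 5p only DEX does.

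On the log2(FPKM + 40) scale the 3p arm differed from Control by 0.66 ± 0.19 in CAF, by 0.94 ± 0.23 in DEX and by 0.50 ± 0.23 in CAF+DEX (SE from the groups' own spread, n = 3 each). As folds these are 1.58, 1.92 and 1.42. The 5p arm differed by 0.29 ± 0.24, 0.67 ± 0.25 and 0.30 ± 0.22 in the same comparisons. These differences stood on a shift of the whole profile. The median of the 366 microRNAs tested was higher than Control by 0.19 in CAF, 0.47 in DEX and 0.24 in CAF+DEX. The 3p difference was above that of 69.7% of all tested microRNAs after caffeine, 73.0% after dextromethorphan and 65.3% after both, and that of the 5p arm above 53.6%, 59.0% and 53.8%. Both arms thus differed in the direction of the median microRNA, and both by more than it.

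Groups that do not overlap were common in these data. Of all microRNAs tested 26% in CAF, 26% in DEX and 18% in CAF+DEX lay wholly above Control, so the complete separation of the 3p arm in CAF and DEX, and of the 5p arm in DEX, is a description of these libraries only. DEX2 and DEX3, the shallowest libraries, also held the highest levels of both arms. DEX1 alone differed from the Control mean by 0.50 for the 3p arm and by 0.35 for the 5p arm, with the median of all tested microRNAs at 0.30. In order of mean level the 3p arm ran from DEX through CAF and CAF+DEX to Control, and each neighbouring pair down to CAF+DEX against Control overlapped. For the 5p arm the order was DEX, CAF+DEX, CAF and Control, and again each neighbour overlapped the next.

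Set against each single drug, the combination gave lower or like levels of both arms. The 3p arm in CAF+DEX differed from DEX by -0.43 ± 0.32 and from CAF by -0.15 ± 0.29 (log2, SE, n = 3 each). The 5p arm differed from DEX by -0.37 ± 0.21 and from CAF by 0.01 ± 0.20. Each of these comparisons overlapped, and 7.38% of all microRNAs tested lay wholly below CAF and 13.1% wholly below DEX. Against DEX1 alone the CAF+DEX mean differed by 0.0048 for the 3p arm and by -0.05 for the 5p arm. Without CAFDEX6 the 3p difference from CAF turned to 0.07.

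**Figure D2:**
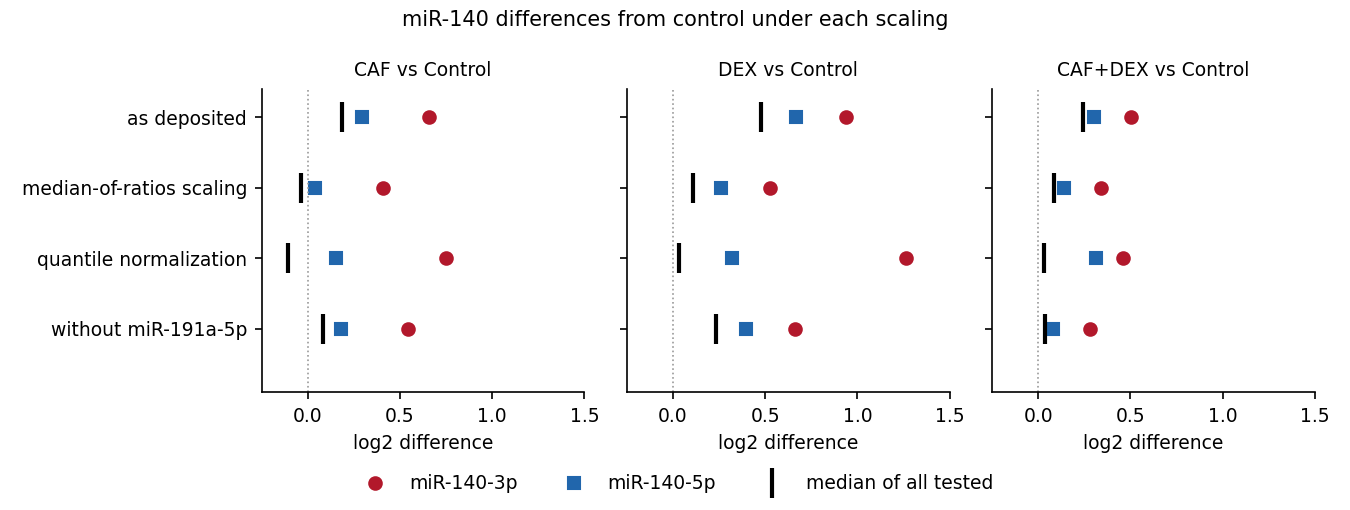
Log2 differences from Control (horizontal axis) of miR-140-3p (circles), miR-140-5p (squares) and the median of all microRNAs tested (bars) under 4 scalings of the libraries, 1 panel per comparison. Both arms stay above 0 and above the median under each scaling, from 0.04 for the 5p arm after caffeine to 1.26 for the 3p arm after dextromethorphan.

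Other scalings changed the size of these differences, not their direction against Control. With median-of-ratios scaling the 3p difference was 0.41 after caffeine, 0.53 after dextromethorphan and 0.34 after both, and that of the 5p arm 0.04, 0.26 and 0.14. With miR-191a-5p left out of the total, the 3p arm gave 0.54, 0.66 and 0.28 and the 5p arm 0.18, 0.40 and 0.08. Quantile normalization carried the median to -0.11, 0.03 and 0.03. It gave 0.75, 1.26 and 0.46 for the 3p arm and 0.15, 0.32 and 0.31 for the 5p arm.

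The 3p arm exceeded the 5p arm in every library by 30.6-fold to 56.5-fold, as a ratio of FPKM and so per length. The ratio was 43.5, 54.4 and 56.5 in CAF3, CAF4 and CAF5, and 43.9, 51.8 and 48.1 in DEX1, DEX2 and DEX3. It was 47.1, 50.7 and 39.8 in CAFDEX2, CAFDEX3 and CAFDEX6, against 40.5, 50.6 and 30.6 in ctrl1, ctrl3 and ctrl5. All treated groups overlapped Control, while 16.7%, 9.8% and 10.8% of 102 hairpins lay wholly above it after caffeine, dextromethorphan and both. The Control libraries spanned the widest range and held both the lowest ratio (ctrl5) and a ratio above the CAF+DEX mean (ctrl3). The log2 ratio averaged 5.68 ± 0.20 after caffeine, 5.58 ± 0.12 after dextromethorphan, 5.51 ± 0.18 after both and 5.31 ± 0.36 in Control (SD, n = 3 each).

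**Figure D3:**
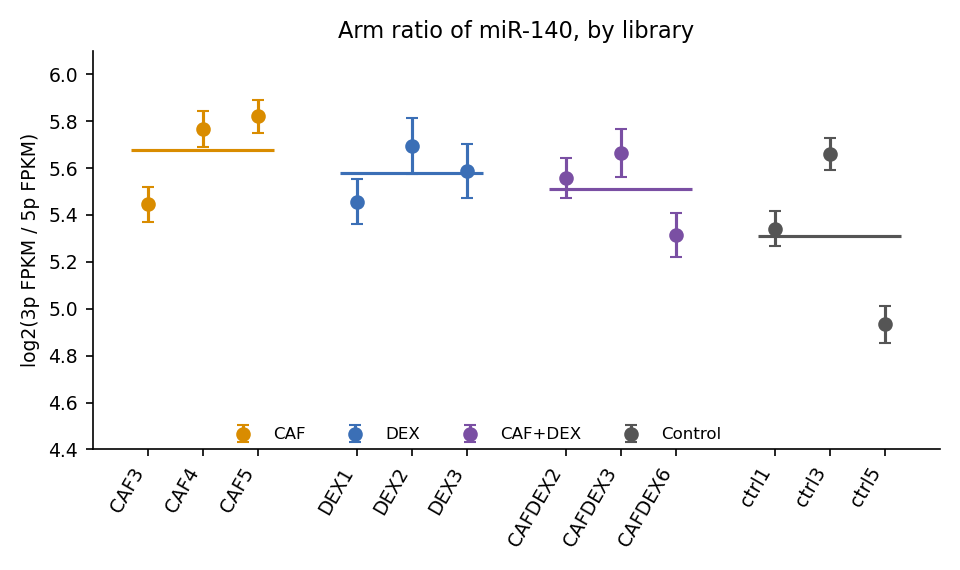
Log2 ratio of miR-140-3p to miR-140-5p FPKM in each library (points), with 95% intervals from counting error only and horizontal lines at the group means. The treated means lie between 5.51 and 5.68 and the Control mean at 5.31, with ctrl5 at 4.93 the lowest library.

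The differences in log2 ratio from Control were 0.37 ± 0.24 in CAF, 0.27 ± 0.22 in DEX and 0.20 ± 0.23 in CAF+DEX (SE, n = 3 each). Without ctrl5 they were 0.18, 0.08 and 0.01. CAF+DEX differed from CAF by -0.16 ± 0.16 and from DEX by -0.07 ± 0.12. Both overlapped, with 5.88% and 7.84% of hairpins lying wholly below CAF and DEX. The differences from Control were all smaller than the range of the Control libraries, 4.93 to 5.66. A single scaling factor per library, as in median-of-ratios scaling or in leaving out miR-191a-5p, cancels in this ratio. Quantile normalization changes levels unequally and does not cancel. An alternative chosen after seeing the data, it gave 0.60, 0.94 and 0.15 for CAF, DEX and CAF+DEX against Control, -0.45 for CAF+DEX against CAF and -0.80 for CAF+DEX against DEX.

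The reads behind the ratio were many. Counts recovered from the FPKM ran from 27349 in DEX3 to 89370 in CAF5 for the 3p arm, and from 564 in DEX2 to 1732 in ctrl3 for the 5p arm. The 5p arm was 3.32% of the arms' reads in ctrl5 (exact 95% binomial interval 3.14% to 3.50%) and 1.82% in CAF5 (1.74% to 1.91%), with the other libraries between them. The counting error of the log2 ratio, were each read a separate molecule, would be 0.035 to 0.061 per library, and the within-group SD was 0.23. The recovered counts were whole in 1 of 12 libraries for the 3p arm and in 6 of 12 for the 5p arm, so reads counted in part enter both arms. The interval covers counting error only, and nothing seen here says whether the molecular indices of the kit were used to collapse duplicates.

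Among 102 hairpins with both arms tested, miR-140 was one of several with a strong bias to 3p. The 3p arm was the higher in 48 of them, and miR-140 ranked 16 from the most 3p-biased, with a mean log2 ratio of 5.52. Without regard to direction it ranked 37, the median bias being 3.45 log2 units. Its within-group SD of 0.23 was above that of 6 hairpins, beside a median of 0.55. Its less abundant arm had a mean of 15.4 on the log2 scale, a level that the lesser arm reached in 4 of the 102 hairpins: miR-126a, miR-142, let-7d and miR-140. Within-group SDs were 0.21 for miR-126a, 0.34 for miR-142 and 0.31 for let-7d, so the SD of miR-140 lay among those of hairpins with a like lesser arm. The hairpins nearest to miR-140 in ratio were miR-19a at 5.54, miR-22 at 5.58 and miR-301a at 5.32. Their lesser arms lay far lower, at 6.66, 7.55 and 6.70, and their within-group SDs were 1.10, 0.54 and 1.29.

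**Figure D4:**
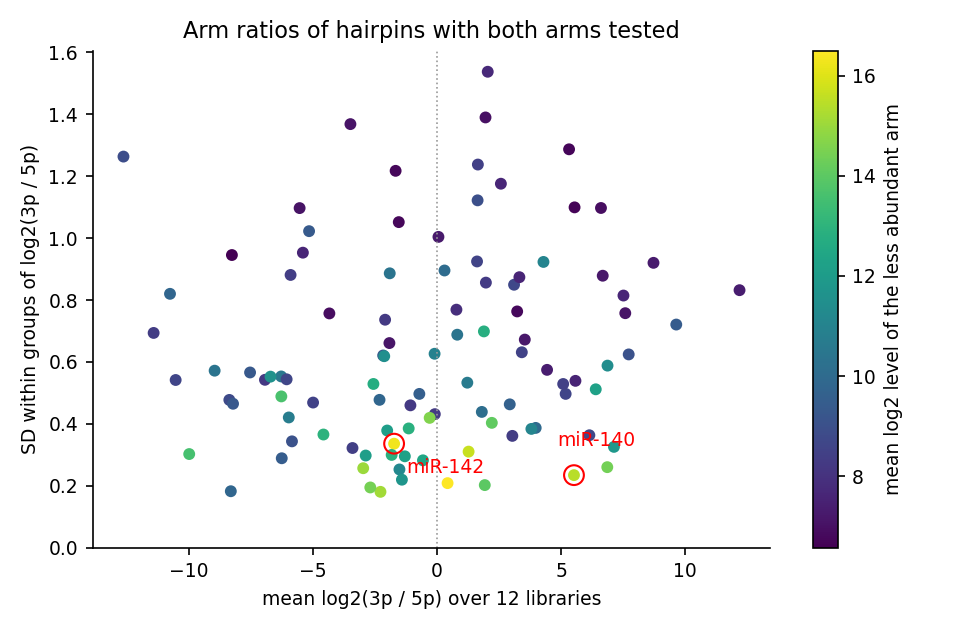
Mean log2 ratio of 3p to 5p over the 12 libraries (horizontal axis) and its SD within groups (vertical axis) for 102 hairpins, coloured by the mean log2 level of the less abundant arm. miR-140 (circled) lies at 5.52 on the 3p side with an SD of 0.23, and miR-142 is circled at -1.73.

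Arm ratios of other hairpins seldom passed a test in the same libraries, here limma with Benjamini-Hochberg adjustment over the 102 hairpins. After caffeine 0 passed, or 0% of hairpins (10 at an unadjusted p under 0.05), after both drugs 0 (15), and for CAF+DEX against CAF 0 (3). After dextromethorphan 1 passed, or 0.98% of hairpins, with 12 at an unadjusted p under 0.05, and 1 passed for CAF+DEX against DEX (11). Both calls were miR-142, a microRNA of blood cells. Its log2 ratio of 3p to 5p was -1.39, -0.71 and -0.37 in DEX1, DEX2 and DEX3, against -1.99, -2.14 and -1.81 in ctrl1, ctrl3 and ctrl5. The ratio rose by 1.16 ± 0.23 after dextromethorphan (SE, limma adjusted p = 0.00971), and in CAF+DEX it was lower than in DEX, by -1.05 ± 0.23 (adjusted p = 0.0269). The first call was lost in 5 of 17 alternatives, among them leaving out ctrl3, DEX2 or DEX3, and the second in 5 of 17, among them leaving out CAFDEX2, CAFDEX6 or DEX3. For miR-140 the ratio difference was above that of 66.7% of hairpins after caffeine, 69.6% after dextromethorphan and 61.8% after both.

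The arms' profiles across the 12 libraries resembled each other and those of microRNAs from a cluster on the X chromosome. Likeness was the root mean square difference of log2 levels after each microRNA was centred on its own mean. Between the arms it was 0.23 log2 units, which made each arm the 4th nearest of 365 other microRNAs to the other, beside medians of 0.65 for the 3p arm and 0.61 for the 5p arm. The 5 nearest to the 3p arm were miR-503-5p (0.20), miR-29b-3p (0.23), miR-503-3p (0.23), the 5p arm and miR-322-3p (0.25). The 5 nearest to the 5p arm were miR-503-5p (0.19), miR-503-3p (0.21), miR-351-5p (0.23), the 3p arm and miR-542-3p (0.24). miR-503, miR-322, miR-351 and miR-542 lie in the files' coordinates on chromosome X within 158148183 to 158158954, and again in a second block from 158584564 to 158589699, so their values are sums over copies. The libraries differ in depth and in the scaling of FPKM, and the same differences enter every profile. Ranked by Pearson correlation instead, 2 of these 5 for the 3p arm and 1 of these 5 for the 5p arm were again among the nearest 5. By that measure the 5p arm ranked 10 for the 3p arm and the 3p arm ranked 12 for the 5p arm (r = 0.84).

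**Figure D5:**
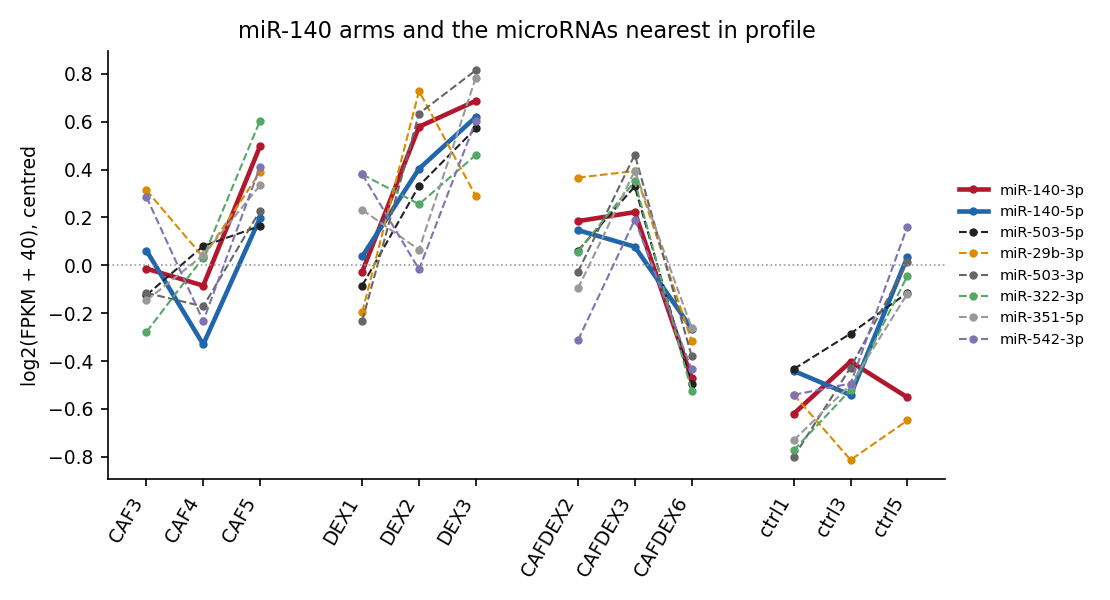
Log2(FPKM + 40) of the miR-140 arms (solid) and the microRNAs nearest in profile (dashed), each centred on its mean over the 12 libraries, with lines joining the libraries of a group only as a guide. Every one lies below its mean in CAFDEX6, ctrl1 and ctrl3, and most are highest in DEX3, the exceptions being miR-29b-3p (DEX2) and miR-322-3p (CAF5).

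These neighbours were picked for their likeness to miR-140 in the same libraries, so their differences from Control are given without a test. miR-29b-3p, which targets collagen messages, had log2 differences of 0.91 after caffeine, 0.94 after dextromethorphan and 0.82 after both. miR-503-3p, at 65.6 kFPKM on average, had log2 differences of 0.39, 0.81 and 0.42 in the same comparisons. miR-351-5p, at 194 kFPKM, had differences of 0.53, 0.81 and 0.46.

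Calls among other microRNAs known from chondrocytes were too few to be set apart from the share of all microRNAs tested. Of 9 listed and tested, 1 rose and 8 did not pass after caffeine, 1 rose and 8 did not pass after dextromethorphan, and 0 of 9 passed after both, beside 6.83%, 11.5% and 6.56% of all 366 microRNAs that rose and 7.92%, 12% and 10.9% that passed in either direction. The balance of those calls turned on the scaling. As deposited, 25 rose and 4 fell in CAF, 42 and 2 in DEX, and 24 and 16 in CAF+DEX. With median-of-ratios scaling 12 rose and 7 fell in CAF, 15 and 19 in DEX, and 19 and 25 in CAF+DEX. With quantile normalization the counts were 11 and 7, 13 and 17, and 17 and 21. Between CAF+DEX and CAF 0% of microRNAs passed by adjusted p (22 at an unadjusted p under 0.05), and between CAF+DEX and DEX 3.55%. Against Control 91, 118 and 103 of the 366 had an unadjusted limma p under 0.05 in CAF, DEX and CAF+DEX. The list's median log2 difference was 0.79, 0.97 and 0.38, beside 0.19, 0.47 and 0.24 over all tested. The member that rose was miR-27b-3p, which in human chondrocytes represses the collagenase MMP13. It averaged 95.5 ± 5.93 kFPKM after caffeine, 106 ± 7.13 kFPKM after dextromethorphan, 95.2 ± 38.0 kFPKM after both and 49.4 ± 14.8 kFPKM in Control (SD, n = 3 each). Its log2 differences were 0.99 ± 0.29 after caffeine (SE, limma adjusted p = 0.0475) and 1.14 ± 0.29 after dextromethorphan (0.0247). The caffeine call was lost in 12 of 18 alternatives and the dextromethorphan call in 7 of 18. Leaving out ctrl1, ctrl3, DEX2 or DEX3 ended both, and so did median-of-ratios scaling and quantile normalization. Leaving out CAF3, CAF4, CAF5 or CAFDEX2 ended the caffeine call alone.

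miR-455, a cartilage microRNA from an intron of Col27a1, did not pass with all libraries as deposited. Under some alternatives an arm of it was called, among them leaving out ctrl5, which gave calls of the 3p arm in all 3 comparisons with Control. Its 3p arm had a log2 difference of 1.09 ± 0.34 after dextromethorphan (adjusted p = 0.0505), 0.84 ± 0.34 after caffeine and 0.84 ± 0.34 after both (SE). It averaged 35.8 ± 12.0 kFPKM in DEX, 29.6 ± 8.28 kFPKM in CAF, 29.3 ± 4.90 kFPKM in CAF+DEX and 17.2 ± 7.74 kFPKM in Control (SD, n = 3 each). The arms of miR-675, processed from the H19 transcript, averaged 0.227 and 0.394 kFPKM and rest on few reads. The most abundant member, miR-148a-3p, had the opposite sign in all 3 comparisons, -0.66, -0.42 and -0.66. miR-145-5p, which averaged 65085 FPKM, had differences of 1.25 ± 0.54 in CAF, 1.54 ± 0.54 in DEX and 0.83 ± 0.54 in CAF+DEX (SE). It did not pass with all libraries as deposited (limma adjusted p = 0.165, 0.0608 and 0.327).

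Some markers of other cell types rose in the same libraries, where 6.83% of all microRNAs tested rose in CAF, 11.5% in DEX and 6.56% in CAF+DEX. After dextromethorphan 5 of 5 epithelial markers rose (miR-200a-3p, miR-200b-3p, miR-200c-3p, miR-141-3p and miR-429), their summed level being 34.1 to 126 kFPKM against 11.6 to 16.4 kFPKM in Control. Of hepatocyte markers 3 of 4 rose (miR-802-5p, miR-192-5p and miR-122-5p), with sums of 3080 to 7182 kFPKM against 852 to 2326 kFPKM in Control. Of red-cell markers 3 of 5 rose (both arms of miR-451 and miR-144-5p), with log2 differences of 1.79 for miR-451-5p, 2.16 for miR-451-3p and 1.64 for miR-144-5p. The summed level of that list, 4529 to 5594 kFPKM in DEX against 4321 to 4503 kFPKM in Control, is nearly all miR-16-5p, which had a difference of 0.23 (limma adjusted p = 0.412). The platelet sum was 2420 to 3007 kFPKM in DEX against 3284 to 3648 kFPKM in Control, most of it miR-223-3p. Platelet, leukocyte, striated muscle, and endothelial and smooth muscle markers that rose were 1 of 5, 0 of 6, 1 of 4 and 0 of 4. After caffeine the same 3 hepatocyte markers rose, with 3 of 4 for striated muscle, 2 of 6 for leukocytes, 1 of 5 for platelets, 1 of 4 for endothelium and smooth muscle, and 0 of 5 each for red cells and epithelium. After both drugs the counts were 3 of 6 for leukocytes, 2 of 4 each for hepatocytes and striated muscle, 1 of 5 each for red cells and platelets, 0 of 5 for epithelium and 0 of 4 for endothelium and smooth muscle. Without DEX2 and DEX3, an alternative chosen after seeing the data, the dextromethorphan counts were 2 of 5 for epithelium, 4 of 4 for hepatocytes and 0 of 5 for red cells, beside 18 of all 366. DEX1 is then alone, and is assumed to vary like the libraries of the other groups. With median-of-ratios scaling the dextromethorphan counts were 5 of 5, 2 of 4 and 2 of 5, and 1 of 5 platelet markers fell. The part of these cell types in the miR-140 values was not tested.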

How the data were processed

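The authors deposited FPKM per mature microRNA, 1 column per library. Named in the submitters' processing notes, without roles, are STAR 2.7.10a, cutadapt 3.7, Subread 2.0.1 with featureCounts, DESeq2 1.20.0 and build rn6. FPKM times length summed to the same constant in each column. Fractional counts were recovered in steps of 0.01, taking the commonest of the lowest nonzero values of FPKM times length as 1 read. The counts, depths and binomial intervals rest on that assumption. Column names gave the group, but their numbers are not those of the sample titles.

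Copies of a name were summed. Testing was limited to names averaging 80 FPKM or more and detected in 3 or more libraries, 366 in all, on log2(FPKM + 40) with limma 3.58.1 in R 4.3.3, all 4 groups in 1 fit, Benjamini-Hochberg threshold 0.05, two-sided. Arm ratios were fitted likewise, with a trend on the level of the lesser arm. The pseudocount is each library's lowest decile of nonzero values, as a median across libraries, to 1 digit. Both fits were also run on simulated data, and no result here draws on that. RNAfold 2.7.2 folded the hairpin, and figures used matplotlib 3.10.9. The members, lists and tests were chosen with earlier results of these data known. Named were both arms, the 5 nearest to each in profile, the hairpins nearest in ratio or passing, and cartilage microRNAs that passed or were most abundant. From the cartilage list miR-455 and miR-675 were described as well, outside that rule. Of the cell type lists, counts, sums, some passing members and some of the most abundant members are given. 685 of the 752 names matched the RefSeq table.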

Additional observations from a re-analysis of the deposited data

Results flagged for a closer look

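The difference in miR-140-3p that went with caffeine had opposite signs according to what caffeine was added to. Given alone, caffeine went with a log2 difference of 0.66 from Control, and all 3 CAF libraries lay above the Control mean. Added to dextromethorphan it went with -0.43 from DEX, and all 3 CAF+DEX libraries lay below the DEX mean, though the groups overlapped. The second value was 0.0048 without DEX2 and DEX3 and -0.21 without CAFDEX6. The median of all 366 microRNAs tested had the same signs, 0.19 and -0.24. The arm ratio had opposite signs with dextromethorphan: 0.27 from Control when given alone, with all 3 libraries above the Control mean, and -0.16 from CAF when added to caffeine, with all 3 below the CAF mean. Both comparisons overlapped, and without ctrl5 the first value was 0.08. CAFDEX3, at 5.66, lay only just below the CAF mean of 5.68. The median ratio difference of all 102 hairpins was -0.03 and -0.05 in these comparisons. The interval between caffeine and blood in CAF is not known here, so it may differ from that in CAF+DEX. Neither contrast between effects was tested, since levels and ratio were known when the arms were chosen.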

How the results depend on the processing

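No paired analysis was possible because no matching between groups is described and the column numbers are not the replicate numbers of the sample titles. Against Control both arms and their ratio kept their direction under every alternative run. After dextromethorphan, the 3p difference moved to 0.53 with median-of-ratios scaling, 1.26 with quantile normalization and 0.50 without DEX2 and DEX3 (an alternative chosen after seeing the data), and the 5p difference to 0.26, 0.32 and 0.35. Quantile normalization, added for the ratio after seeing the data, moved it to 0.94 for DEX, -0.45 for CAF+DEX against CAF and -0.80 against DEX. For CAF+DEX against DEX, quantile normalization gave -0.80 for the 3p arm and -0.0064 for the 5p arm, and leaving out DEX2 and DEX3 gave 0.0048 and -0.0508. Leaving out 1 library at a time gave, after caffeine, dextromethorphan and both against Control, 0.48 to 0.77, 0.80 to 1.16 and 0.38 to 0.73 for the 3p arm, 0.18 to 0.47, 0.54 to 0.84 and 0.19 to 0.48 for the 5p arm, and 0.18 to 0.54, 0.08 to 0.44 and 0.01 to 0.37 for the ratio. For CAF+DEX against CAF the ranges were -0.28 to 0.07, -0.14 to 0.14 and -0.28 to -0.07, and against DEX -0.65 to -0.21, -0.52 to -0.23 and -0.14 to 0.03.

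Counts of microRNAs called by level were 29, 44, 40, 0 and 13 for CAF, DEX and CAF+DEX against Control, and for CAF+DEX against CAF and against DEX. Without the low-value filter they were 11, 26 and 13 against Control. For CAF they were 19 with median-of-ratios scaling, 18 with quantile normalization and 65 in a fit of CAF and Control alone, and for DEX 25 in such a fit. For DEX, 42 higher and 2 lower became 15 and 19 with median-of-ratios scaling and 13 and 17 with quantile normalization, and for CAF+DEX 24 and 16 became 19 and 25, and 17 and 21. Without DEX2 and DEX3 DEX gave 18 and CAF+DEX against DEX 0 (56 at an unadjusted limma p under 0.05), the lone DEX1 being assumed to vary like the other groups. Leaving out 1 library gave 4 (without ctrl3) to 44 (without DEX1), 12 (DEX3) to 74 (DEX1), 3 (ctrl1) to 56 (CAFDEX6), 0 to 0 (22 at an unadjusted limma p under 0.05 with all libraries) and 9 (DEX2) to 24 (DEX1). Counts of hairpins by arm ratio were 4 for DEX and 2 for CAF+DEX against DEX with 4 times the pseudocount. Without the filter they were 1 for CAF and 0 for CAF+DEX against DEX. In fits of 2 groups alone DEX gave 0 and CAF+DEX 2, and without DEX2 and DEX3 also 0 and 2. Leaving out 1 library gave 0 to 0, 0 (without ctrl3) to 5 (without DEX1), 0 to 1 (ctrl5), 0 to 0 and 0 to 4 (DEX2). The cause of these changes was not tested. Depth limits the 5p arm most, with 564 recovered reads in DEX2.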

Other observations

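The cluster on chromosome X was followed further after its members were found among the nearest profiles. Of its 12 mature names 11 were tested. Among the 20 microRNAs nearest in profile were 6 of the 11 for miR-140-3p and 5 of the 11 for miR-140-5p. Those far from both arms included miR-450b-5p and miR-450a-5p, at ranks 337 and 229 of 365 for the 3p arm. They averaged 0.129 and 0.336 kFPKM and so rest on few reads. The more abundant miR-351-3p, at 8.43 kFPKM, ranked 38 for the 3p arm and 46 for the 5p arm. miR-322-5p, at 28.4 kFPKM, ranked 14 for the 3p arm and 37 for the 5p arm. Its log2 differences from Control were 0.60 after caffeine, 1.13 after dextromethorphan and 0.62 after both. Those of miR-140-3p were 0.66, 0.94 and 0.50. Some members went the other way. In the same comparisons miR-450b-5p had -0.84, -1.32 and -0.25, and miR-450a-5p had -0.65, -0.65 and -0.34. miR-351-3p had 0.15, 0.92 and -0.05, and miR-450b-3p had 0.14, 0.93 and -0.38. The remaining tested members were above 0 in each comparison. The set was chosen for its likeness to miR-140, so nothing was tested over the set.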
